A study of Rattus norvegicus with 9 samples.

Results

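The genes described here code for the collagens, the laminin chains and the integrin subunits of the kidney cortex. They were taken by name from a table of 18420 genes: 66 symbols were those of a numbered collagen chain, a laminin chain or an integrin subunit, and the 58 with a mean value of at least 10 over 9 libraries were kept. The 58 genes comprised 13 chains of the basement membrane (5 type IV collagens and 8 laminins), 9 fibrillar collagens, 15 other collagens and 21 integrin genes (12 alpha subunits, 8 beta subunits and Itgbl1, a beta-like gene that is not a receptor subunit). Just inside the limit lay Col20a1, Col24a1 and Itgb3 with means of 10.8, 13.6 and 15.4, and just outside it Col5a3, Col22a1 and Col19a1 with means of 9.08, 5.30 and 4.63. Several chains that matter in the kidney, among them Lama5, Itga1, Itgam and Col6a3, were not analysed here.

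Messenger RNA had been sequenced from flash-frozen renal cortex taken from diabetic ZDF fa/fa rats, which lack a working leptin receptor and become obese and diabetic. All 9 libraries carry 1 label, Medical Bypass, a treatment that the study's title sets against gastric bypass surgery. The labels used here give no drug, dose, duration, age or sex, and no untreated, operated or lean rats were analysed here, so no effect of treatment or of diabetes could be estimated and every comparison below is between replicates. Nothing in the labels ties each replicate to its own animal, and a p-value here reflects the spread between 9 libraries, part of which may be technical. Values are gene reads divided by the size factor of the library, with no correction for gene length, so levels were compared between libraries and not between genes.

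Basement membranes are thin sheets of type IV collagen and laminin that lie under epithelia and around vessels. In the glomerulus the filtration barrier rests on a network of the Col4a3, Col4a4 and Col4a5 chains made by podocytes, while the Col4a1 and Col4a2 chains are found in nearly all basement membranes. Fibrillar collagens such as types I and III form the fibres of the interstitium and accumulate in fibrosis. Integrins are receptors made of an alpha and a beta subunit that tie cells to this matrix, and those that contain Itgav can release active TGF-beta from its latent form.

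The genes of the paired type IV collagen chains lie head to head in the genome and share promoter sequence. In the RefSeq annotation of the rat assembly GRCr8, the starts of Col4a1 and Col4a2 were 77 bases apart on chromosome 16, and those of Col4a3 and Col4a4 were 413 bases apart on chromosome 9. The windows from 250 bases before to 50 bases after the start, of 300 bases each, shared 176 bases in the first pair and 88 in the second. The windows of Col4a1 and Col4a3 are shown because they hold these shared bases (capitals), and those of Itgav and Itgb8 because these integrin subunits varied most between libraries relative to their level (capitals mark the GC box GGGCGG or its complement).
Col4a1 (chr16:84885347-84885646, plus strand): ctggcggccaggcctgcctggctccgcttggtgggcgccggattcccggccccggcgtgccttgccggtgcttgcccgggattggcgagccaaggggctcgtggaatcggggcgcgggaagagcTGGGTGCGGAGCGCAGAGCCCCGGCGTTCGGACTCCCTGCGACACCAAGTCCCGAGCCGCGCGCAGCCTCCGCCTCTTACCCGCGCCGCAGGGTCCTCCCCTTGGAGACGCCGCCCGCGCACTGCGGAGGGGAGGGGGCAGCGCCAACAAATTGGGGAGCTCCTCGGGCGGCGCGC
Col4a3 (chr9:91323740-91324039, plus strand): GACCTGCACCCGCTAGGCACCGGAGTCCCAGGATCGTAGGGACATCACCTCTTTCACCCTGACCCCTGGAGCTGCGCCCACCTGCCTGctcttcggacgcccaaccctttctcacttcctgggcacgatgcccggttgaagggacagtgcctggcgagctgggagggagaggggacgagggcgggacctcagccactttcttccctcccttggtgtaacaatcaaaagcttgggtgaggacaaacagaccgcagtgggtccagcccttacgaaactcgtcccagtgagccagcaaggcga
Itgav (chr3:89245132-89245431, plus strand): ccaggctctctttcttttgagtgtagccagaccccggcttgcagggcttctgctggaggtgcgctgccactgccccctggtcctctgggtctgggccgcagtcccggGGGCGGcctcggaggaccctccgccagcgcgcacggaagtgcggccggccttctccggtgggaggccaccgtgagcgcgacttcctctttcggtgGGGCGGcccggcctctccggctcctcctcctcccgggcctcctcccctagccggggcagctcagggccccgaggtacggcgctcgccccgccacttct
Itgb8 (chr6:146351196-146351495, minus strand): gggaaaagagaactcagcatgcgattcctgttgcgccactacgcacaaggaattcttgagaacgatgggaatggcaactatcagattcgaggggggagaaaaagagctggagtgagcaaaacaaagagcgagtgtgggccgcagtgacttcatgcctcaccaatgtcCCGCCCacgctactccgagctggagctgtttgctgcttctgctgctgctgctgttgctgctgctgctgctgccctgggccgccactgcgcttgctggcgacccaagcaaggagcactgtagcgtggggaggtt

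A window was found for 45 of the 58 genes. On either strand the GC box GGGCGG was present in 27 of these 45 windows (60%), against 34.9% of all 27457 windows, and CCAAT in 14 (31.1%), against 37.7%. TATAAA was present in 5 (11.1%), against 14.3%, and the E-box CACGTG in 0 of 45, against 6.65%. Col4a1 and Col4a2 each held 2 GC boxes, which are the same 2 sites, since both lie in the 176 bases that the windows share, and both windows are counted among the 27. Itgav held 2 and Itgb8 held 1. None of the 4 motifs contains another, and a match describes the letters only.

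Reads in genes numbered 10757440 to 43071223 per library. The libraries differed in the share of counted reads that aligned to more than 1 place: it was 14.9% to 15.8% in replicates 2, 3, 6 and 9 and 16.8% to 22.1% in replicates 1, 4, 5, 7 and 8. The share of reads outside genes went the opposite way, at 30.4% to 31.3% in the first 4 libraries and 22.03% to 30.02% in the other 5. Replicate 1 also had the highest summed level of the collecting duct principal cell markers (21598, against a median of 11419) and the lowest of the proximal tubule markers (96159, against a median of 128329). It was highest as well for intercalated cell (19319, median 12074), thick ascending limb (104113, median 65589) and adipose markers (1250, median 657). All 8 podocyte markers and the 4 proximal tubule markers analysed passed a mean of 10, as did all 4 of the intercalated cell markers, while 0 of 6 lymphocyte markers did. In such tissue samples fewer cells of a type and less RNA per cell cannot be told apart.

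Between replicates the typical collagen, laminin or integrin gene differed about as much as any other gene. The median ratio of the highest library to the lowest was 1.80 for the basement membrane chains, 1.95 for the fibrillar collagens, 2.51 for the other collagens and 2.16 for the integrins, against 2.01 over all 13647 genes tested. The other collagens rested on fewer reads, with a median total of 457 reads per gene over the 9 libraries against 4455 for the basement membrane chains. When the variance of each gene on the log2(value + 1) scale was set against the trend of variance on level (limma, Benjamini-Hochberg), 0 of 58 genes passed an adjusted p of 0.05, against a background of 0% of all genes. At an unadjusted p of 0.05, 3 of the 58 passed, against 4.20% of all genes, and DESeq2 named 1 of the 58, Itgb8, among 71 genes of outlying dispersion. The 3 were the integrin subunits Itgb8, Itgav and Itga6, whose variances were 16.1, 10.8 and 9.05 times the trend (adjusted p = 0.957 for each). The steadiest was the laminin chain Lamb1, with a variance 0.132 times the trend.

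**Figure D1:**
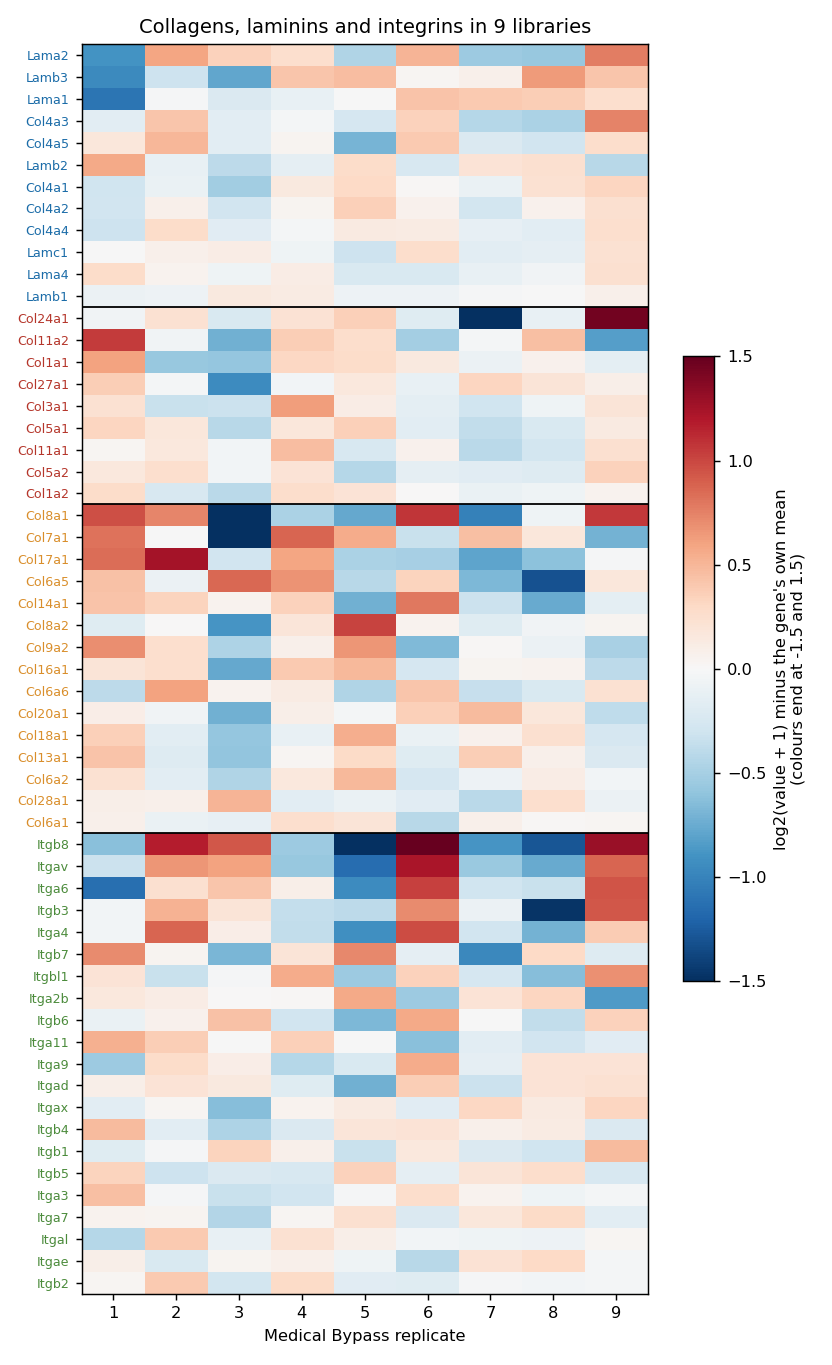
Each row is 1 of 57 of the 58 genes and each column 1 Medical Bypass replicate; colour gives log2(value + 1) minus the gene's own mean over the 9 libraries, red for higher and blue for lower, and label colours mark basement membrane (blue), fibrillar (red), other collagen (orange) and integrin genes (green). Itgb8, Itgav and Itga6 are high in replicates 6 and 9 and low in replicate 5, while Lamb1 stays near its mean in all 9 libraries.

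The level of each gene was then fitted as a slope on the share of multi-aligned reads (limma on log2(value + 1), per SD of the share, which is 2.33 percentage points, adjusted over all genes tested). Of the 58 genes, 14 (24.1%) passed an adjusted p of 0.05, against 35.0% of all 13647 genes tested. At an unadjusted p of 0.05, 24 of 58 passed, against 46.4%. By class the 14 were 3 of 13 basement membrane chains, 1 of 9 fibrillar collagens, 3 of 15 other collagens and 7 of 21 integrins, and no difference between classes was tested. Higher with the share were 6 of 58 (Col11a2, Col18a1, Col6a2, Itga2b, Itgb5 and Lamb2), against 16.3% of all genes, and lower were 8 of 58 (Col4a5, Col6a6, Itga4, Itga6, Itgav, Itgb6, Itgb8 and Lama2), against 18.7%. With libraries brought to equal totals of reads, which shifts the median gene by -0.14 (replicate 5) to 0.16 (replicate 1) on the log2 scale, 12 of the 58 passed, 2 higher and 10 lower, and 4303 genes, 1489 higher and 2814 lower. All 14 kept their direction in each of 18 alternatives, and Itgav, Itgb8 and Lama2 kept the threshold in every one of them. Without replicate 5, which had the highest share, 7 of the 58 and 1740 of all genes passed. When the 4 libraries of lowest share were set against the other 5, 11 of 58 genes (19.0%) had ranges that did not overlap, 8 higher and 3 lower, against 23.3% of all genes. These counts lie at or under the background, and none of them is a result about the class as a whole.

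**Figure D2:**
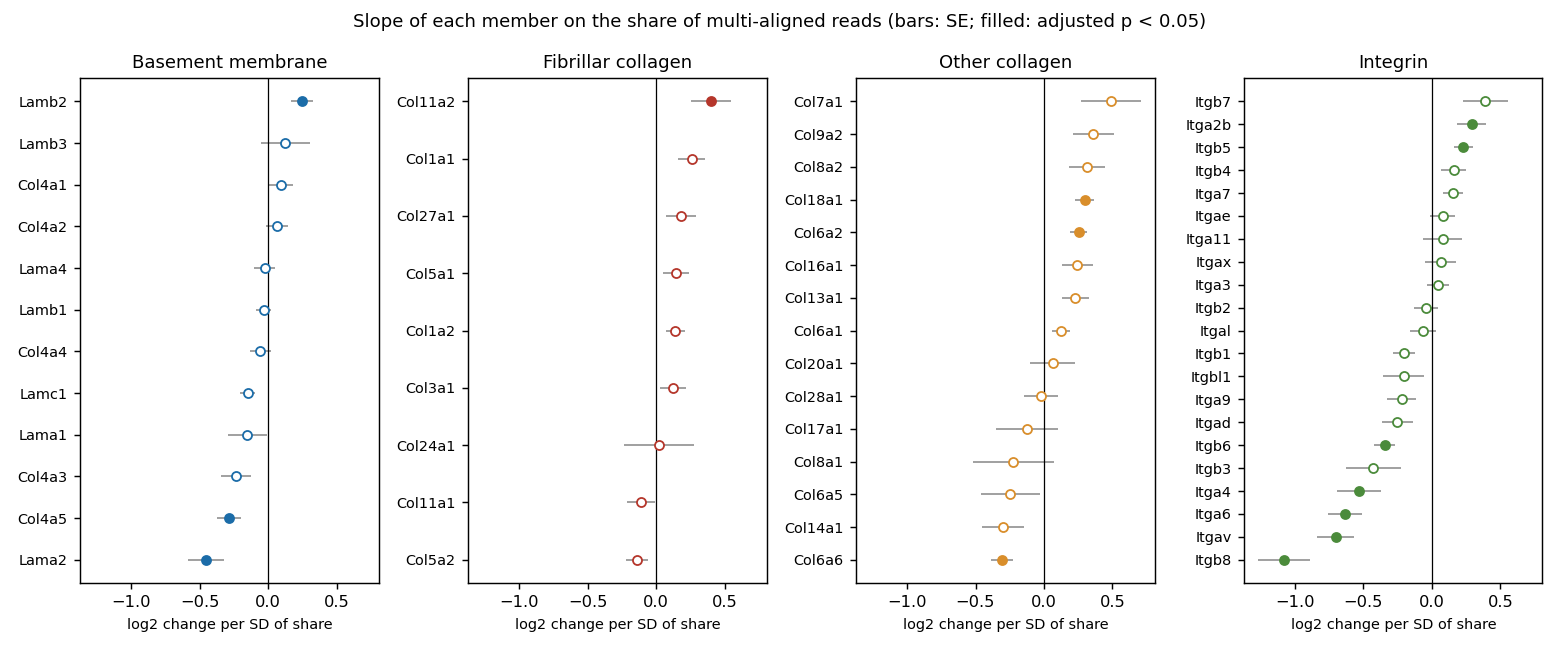
Slope of log2(value + 1) per SD of the share of multi-aligned reads (horizontal axis) for 57 of the 58 genes, in 4 panels by class; bars are SE over 9 Medical Bypass libraries and filled points have an adjusted p under 0.05. Filled points number 3, 1, 3 and 7 from left to right, and Itgb8 and Itgav have the most negative slopes.

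Among the type IV collagens, the Col4a1 and Col4a2 chains of ordinary basement membranes were highest in replicates 5 and 9, and the Col4a3, Col4a4 and Col4a5 chains of the glomerular network were high in replicates 2, 6 and 9. Relations between chains that assemble together, or between a chain and the markers of cells known to make it, were listed for 35 pairs, of which 30 had both genes. In 8 of those a gene's libraries fell into 2 sets with a gap wider than the spread within either, a rule chosen after seeing the data, and these were not pooled. The other 22 were tested by two-sided exact permutation of log2(value + 1) over all pairings, with p-values adjusted over the 22, and the sets of 4 and 5 libraries by share are too small for a value within each. Col4a1 had a lowest, median and highest value of 3296 (replicate 3), 4793 and 5934 (replicate 9). Its partner Col4a2 had values of 1577, 1567 and 1578 in replicates 1, 3 and 7 and 2029, 1976, 2450.2, 2006, 2010.2 and 2269 in replicates 2, 4, 5, 6, 8 and 9. The 9 Col4a2 values thus fell into 2 sets that did not overlap, so no correlation was pooled over them. Within the 6 higher libraries Col4a1 and Col4a2 had r = 0.665 (exact permutation p = 0.154), with rho = 0.543 (exact p = 0.297). The lowest 3 of Col4a2 included the lowest pair of Col4a1, replicates 3 and 1.

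Col4a3, which carries the Goodpasture antigen, had 373 (replicate 8), 468 and 869.5 (replicate 9). The chain assembled with it, Col4a4, had 330.1 (replicate 1), 401 and 496 (replicate 2). Both had replicates 2, 6 and 9 among their 4 highest libraries, and their correlation did not pass the adjusted threshold (r = 0.754, exact permutation p = 0.0215, adjusted p = 0.0942; rho = 0.617, exact p = 0.0857, adjusted p = 0.210). It passed with libraries brought to equal totals of reads (r = 0.883, adjusted p = 0.0196) and with library size as a covariate (r = 0.826, adjusted p = 0.0337), and r was 0.461 without replicates 2 and 9. By r with Col4a3, Col4a4 ranked 1110 among 13646 genes (top 8.13%). Col4a5, the chain mutated in the X-linked form of Alport syndrome, had 217 (replicate 5), 364 and 501 (replicate 2). It was lower at higher shares of multi-aligned reads (slope per SD of the share -0.29 ± 0.09 (SE), adjusted p = 0.0244), and its adjusted p was 0.324 without replicate 5. Its relation to Col4a4 did not pass (r = 0.317, exact p = 0.406, adjusted p = 0.530). Podocyte markers summed to 14051 to 18649 in replicates 2, 3, 6 and 9 and 13849.7 to 17932 in the other 5, and Col4a3 had r = 0.446 with their score (exact p = 0.237, adjusted p = 0.347).

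**Figure D3:**
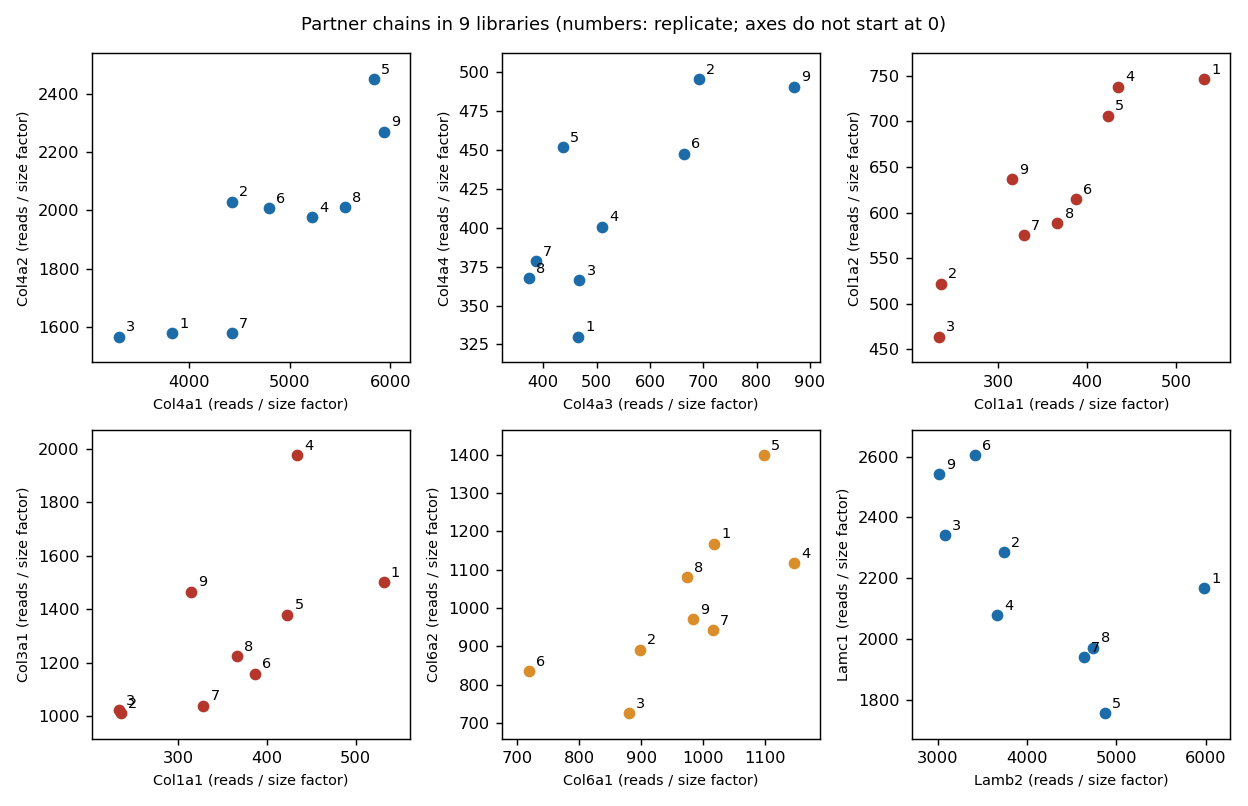
Each panel plots 1 chain against a chain found in the same molecule or fibril, in reads divided by the size factor, with 1 numbered point per Medical Bypass replicate. Col1a1 and Col1a2 lie near a line, Col4a2 shows 3 libraries at 1567 to 1578 apart from the other 6, and the replicates with the 3 lowest Lamc1 values (5, 7 and 8) have high Lamb2 values.

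Among the laminin chains, Lamb1, the beta chain of developing and many adult basement membranes, varied least, with 3461, 3626 and 4077 as its lowest, median and highest values. Lama4, a chain of vessel walls, also kept a narrow range, 246 (replicate 6), 278 and 349 (replicate 1), with a variance 0.355 times the trend. Lamb2, the beta chain of the mature glomerular basement membrane, had 3012 (replicate 9), 3741 and 5979 (replicate 1). Lamc1, the gamma chain shared by most laminins, had 1758 (replicate 5), 2167 and 2604 (replicate 6). Lamb2 was above its median in replicates 1, 5, 7 and 8, of which 5, 7 and 8 held the 3 lowest Lamc1 values, but the inverse relation did not pass the adjusted threshold (r = -0.693, exact permutation p = 0.0409, adjusted p = 0.113; rho = -0.733, exact p = 0.0311, adjusted p = 0.0978). It passed without replicate 1 (r = -0.892, adjusted p = 0.0402) and had r = -0.251 with the share as a covariate. On the share itself Lamb2 was higher (slope 0.25 ± 0.08 (SE), adjusted p = 0.0289), and Lamc1 did not pass (slope -0.15 ± 0.06 (SE), adjusted p = 0.0552).

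Lama2, the alpha chain of muscle laminin, had 279.7, 235, 264 and 316 in replicates 2, 3, 6 and 9 and 98.7, 221, 135, 127 and 125 in replicates 1, 4, 5, 7 and 8. The ranges did not overlap, but the gap was narrow, with 221 in replicate 4 against 235 in replicate 3. By its widest gap Lama2 formed 2 other sets, 98.7 to 135 in replicates 1, 5, 7 and 8 and 221 to 316 in replicates 2, 3, 4, 6 and 9. It was lower at higher shares (slope -0.46 ± 0.13 (SE), adjusted p = 0.0184). Its variance, 3.31 times the trend, was the highest of the basement membrane class, followed by Col4a3 (2.23) and Lama1 (1.82). Lama1, found in tubular basement membranes, was lowest in replicate 1, at 69.9, and 129 to 203 in the other 8 libraries. Lamb3, a chain of an epithelial laminin, had 17.5 (replicate 1), 36.9 and 54.9 (replicate 8), and its 3 lowest values were in replicates 1, 2 and 3. Relations of Lamb1 were not pooled, since its values formed 2 sets, and within its 6 lower libraries r was -0.341 with Lamc1 (exact p = 0.510) and -0.186 with Lama4 (exact p = 0.744).

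Of the fibrillar collagens, the chains of types I and III were low in replicates 2 and 3 and high in replicates 1 and 4. Col1a1 had 233 (replicate 3), 367 and 532 (replicate 1), a 2.28-fold range. Col1a2, the other chain of type I collagen, had 464 (replicate 3), 615 and 747 (replicate 1). Both chains were correlated (r = 0.923, exact permutation p = 0.000499, adjusted p = 0.0110; rho = 0.90, exact p = 0.00203, adjusted p = 0.0445), and r was 0.817 without replicates 2 and 3. Leaving out 1 library at a time gave r = 0.891 to 0.948, with an adjusted p of 0.0584 without replicate 3. With the share as a covariate r was 0.873. Col3a1, the type III chain of soft tissue, had 1011 (replicate 2), 1224 and 1976 (replicate 4), and its relation to Col1a1 did not pass (r = 0.703, exact permutation p = 0.0347, adjusted p = 0.109; rho = 0.783, exact p = 0.0172, adjusted p = 0.0758). In GRCr8 the spans of 10 of the 58 genes overlap another coding gene, among them Col1a1 (Sgca), Itgb1 (LOC134483511), Itga4 (Cerkl) and Col6a6 (Rpl29), and the sources used here do not state how strand was handled in counting.

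Among the minor fibrillar chains, Col5a2, a chain of the type V collagen that starts fibrils, had 273 (replicate 5), 356 and 465 (replicate 9). Its partner Col5a1 had 211 to 246 in replicates 1, 2, 4, 5 and 9 and 143 to 172 in replicates 3, 6, 7 and 8, and no correlation was pooled. Col11a2, best known from cartilage, had 57.3 (replicate 9), 99.8 and 212 (replicate 1) and the highest variance of the class (2.61 times the trend), whereas Col11a1 had 87.9, 119 and 161 and the lowest (0.557). Col11a2 was the fibrillar gene that passed on the share (slope 0.40 ± 0.15 (SE), adjusted p = 0.0498), and it passed in 6 of 18 alternatives. Col27a1 had 320.5 (replicate 3), 657 and 800.0 (replicate 1), and Col24a1, with 3 to 26 reads per library, had 2.99 (replicate 7), 11.3 and 33.8 (replicate 9).

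A score of smooth muscle markers, but no single one of them, passed a test against Col1a1. In the limma slope on Col1a1, 0 of 5 of these markers passed an adjusted p of 0.05, against 0% of all genes. At an unadjusted p of 0.05, 4 of the 5 passed, against 15.1% of all genes. The score of 5 smooth muscle and pericyte markers had r = 0.883 with Col1a1 (exact permutation p = 0.00240, adjusted p = 0.0264; rho = 0.750, adjusted p = 0.0935). It fell to r = 0.607 without replicates 2 and 3, and lost the threshold without replicate 1, 2, 3 or 7. The score of 6 fibroblast markers had r = 0.588 (exact p = 0.101, adjusted p = 0.185). The difference between these relations was not tested. Smooth muscle markers summed to 2998 to 7211. Fibroblast markers, with Postn, which had a mean under 10 and is not in the score, summed to 6171 to 9821. The part of cell numbers in the Col1a1 values was not tested. Havcr1, the tubular injury marker also called KIM-1, had r = 0.0403 with Col1a1 (exact p = 0.920) and r = 0.487 with Col4a1 (exact p = 0.185), and neither passed (adjusted p = 0.949 and 0.290).

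The other collagens include network, beaded-filament and membrane-anchored types. Col18a1, a basement membrane proteoglycan that holds the endostatin fragment, had 2391 (replicate 3), 3333 and 5215 (replicate 5) and was higher at higher shares (slope 0.30 ± 0.07 (SE), adjusted p = 0.00647). Col6a1 and Col6a2, chains of the beaded filaments around cells, had 718 (replicate 6), 984 and 1146 (replicate 4) and 727 (replicate 3), 971 and 1398 (replicate 5). Their r was 0.731 (exact permutation p = 0.0254, adjusted p = 0.0942), while rho was 0.867 (exact p = 0.00451, adjusted p = 0.0445), and r was 0.896 without replicates 4 and 6. Col6a2 passed on the share (slope 0.25 ± 0.06 (SE), adjusted p = 0.00716). Without replicate 5 the adjusted p on the share was 0.0593 for Col18a1 and 0.0769 for Col6a2. Col6a6, another type VI chain, passed in the opposite direction (slope -0.31 ± 0.08 (SE), adjusted p = 0.0120), with 324 (replicate 5), 459.8 and 673 (replicate 2).

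Col8a1 and Col8a2, chains of the lattice collagen of vessels and cornea, had 3.98 (replicate 3), 12.5 and 28.7 (replicate 6) and 41.8 (replicate 3), 78.5 and 159 (replicate 5). Their relation did not pass (r = 0.154, exact p = 0.706), and Col8a1 held only 2 to 42 reads per library. Col7a1, the anchoring fibril collagen, had 7.96 (replicate 3), 34.3 and 56.7 (replicate 4), and Col17a1, a hemidesmosome protein, had 10.98 (replicate 7), 15.9 and 48.2 (replicate 2). Col7a1, Col8a1 and Col17a1 had the 3 highest variances of the class, 3.38, 3.31 and 2.04 times the trend. The 3 lowest were those of Col28a1, Col20a1 and Col6a1, at 0.344, 0.413 and 0.607 times the trend, with 25.96, 32.5 and 49.8 for Col28a1 and 5.97, 11.2 and 14.97 for Col20a1. Col7a1 and Col13a1, a membrane-anchored collagen, were lower without overlap in replicates 2, 3, 6 and 9, at 7.96 to 30.3 and 67.7 to 90.2, against 34.3 to 56.7 and 105 to 139 in the other 5 libraries.

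Itgav and Itgb8, which together form a receptor that activates TGF-beta, had the highest variances relative to the trend. Itgav, the alpha subunit of several such receptors, had 1458, 1389, 2140.4 and 1675 in replicates 2, 3, 6 and 9 and 731, 619, 414, 626 and 542 in replicates 1, 4, 5, 7 and 8. Itgb8 had 594, 499.6, 821 and 646 in the same 4 libraries and 169.7, 179, 79.1, 142 and 107 in the other 5. Both subunits thus formed 2 sets of libraries without overlap, with means of 1666 ± 339 (SD, n = 4) and 586 ± 118 (SD, n = 5) for Itgav and 640.1 ± 135 (SD, n = 4) and 135 ± 42.2 (SD, n = 5) for Itgb8. The ratio of these means was 2.84 for Itgav and 4.73 for Itgb8. The 4 libraries are those with the lowest share of multi-aligned reads, a split made from the libraries and not by the study.

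Itgb6, the epithelial partner of Itgav that also releases TGF-beta, had 1402, 1817, 1974 and 1700.0 in replicates 2, 3, 6 and 9 and 1245, 1097, 840.4, 1336 and 1033 in replicates 1, 4, 5, 7 and 8. Its ranges did not overlap either, though the ratio of means was smaller, 1.55. Unlike Itgav, Itgb6 did not form 2 sets. Its widest gap with at least 3 libraries on each side (1402 to 1700) put replicate 2 with the lower libraries. Itgb5, the partner that binds vitronectin, went the other way and split differently, with 5718 to 6486 in replicates 2, 3, 4, 6 and 9 and 8094 to 9044 in replicates 1, 5, 7 and 8. Because Itgav formed 2 sets of libraries, no correlation of Itgav with its partners was pooled. On the share, the slope per SD was -0.70 ± 0.14 (SE), adjusted p = 0.00341 for Itgav. It was -1.08 ± 0.19 (SE), adjusted p = 0.00253 for Itgb8, -0.34 ± 0.08 (SE), adjusted p = 0.00535 for Itgb6 and 0.23 ± 0.07 (SE), adjusted p = 0.01997 for Itgb5. Itgav and Itgb8 kept an adjusted p under 0.05 in all 18 alternatives, while without replicate 5 the adjusted p was 0.0641 for Itgb6 and 0.0649 for Itgb5.

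**Figure D4:**
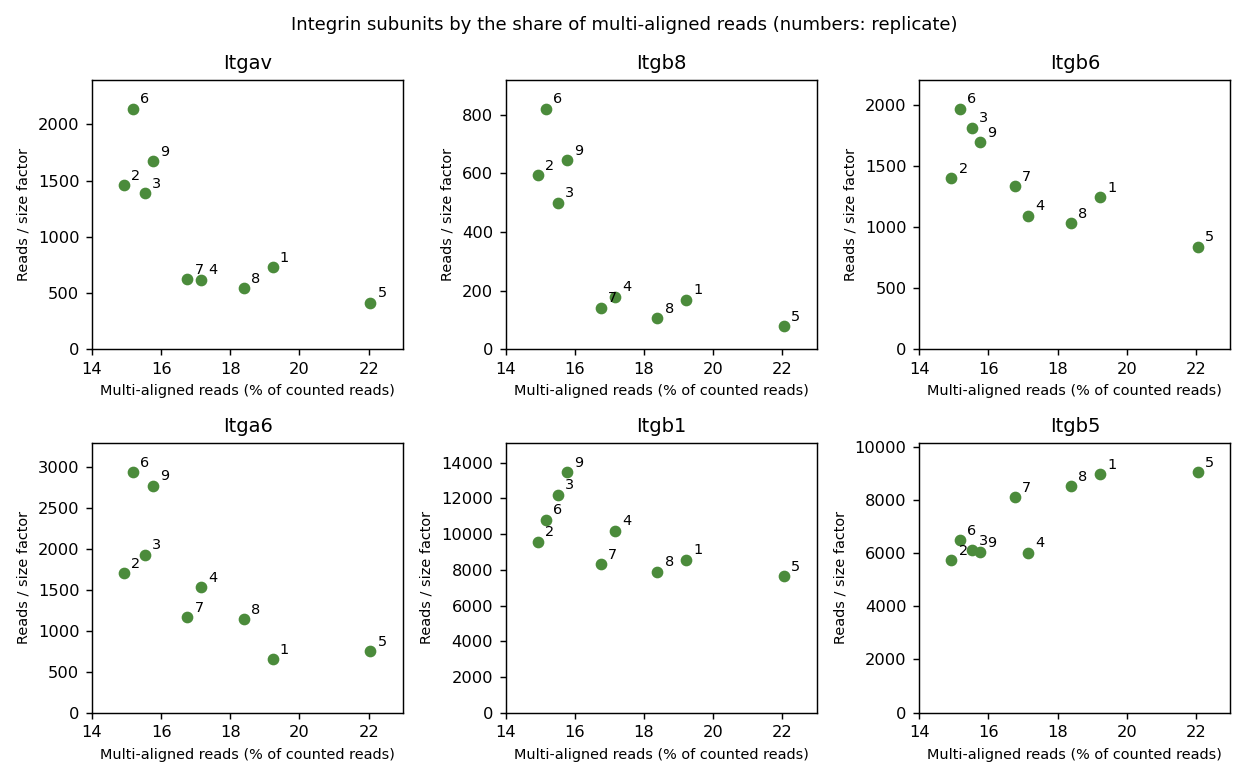
The values of 6 integrin subunits, in reads divided by the size factor (vertical axis, from 0), stand against the percent of counted reads aligned to more than 1 place (horizontal axis), with 1 numbered point per Medical Bypass replicate. Itgav and Itgb8 are high in the 4 libraries under 15.8% and low in the 5 at or above 16.8%, and Itgb5 is highest in replicates 5, 1, 8 and 7.

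Among the laminin receptor subunits, Itga6 was also highest in replicates 2, 3, 6 and 9. Unlike Itgav it did not form 2 sets. Its widest gap with at least 3 libraries on each side (1167 to 1531) put replicate 4 with these libraries. Itga6, which pairs with Itgb1 or Itgb4, had 1704, 1927, 2938 and 2773 in replicates 2, 3, 6 and 9 and 655, 1531, 749.6, 1167 and 1143 in replicates 1, 4, 5, 7 and 8, again without overlap. It was lower at higher shares (slope -0.63 ± 0.12 (SE), adjusted p = 0.00335). Itgb1, the beta subunit of most matrix receptors, had 7657 (replicate 5), 9582 and 13479 (replicate 9) and was correlated with Itga6 (r = 0.835, exact permutation p = 0.00605, adjusted p = 0.0444; rho = 0.833, exact p = 0.00827, adjusted p = 0.0455). By r with Itga6, however, Itgb1 ranked only 1279 among 13646 genes (top 9.37%), so the relation is not particular to this pair. With the share as a covariate r was 0.620 (adjusted p = 0.212), and leaving out any of replicates 2, 3, 4, 5, 7, 8 and 9 raised the adjusted p above 0.05 while r stayed between 0.786 and 0.876. Itgb4, the hemidesmosome subunit, had 167 (replicate 3), 243 and 319.8 (replicate 1) and an r of -0.586 with Itga6 (exact p = 0.0965, adjusted p = 0.185). Itga3, the laminin receptor subunit of podocytes, had 882 (replicate 3), 1092 and 1512 (replicate 1), an r of 0.665 with the podocyte score (exact p = 0.0572, adjusted p = 0.140) and an r of -0.3003 with Itgb1 (exact p = 0.434).

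The leukocyte subunits Itgae, Itgal and Itgb2 had the lowest variances of the integrin class. Itgb2, the common beta subunit of leukocytes, had 141 (replicate 3), 168 and 225 (replicate 2), and Itgal, its partner on lymphocytes, had 92.5 (replicate 1), 122 and 164 (replicate 2). Their r was 0.583 (exact p = 0.1004, adjusted p = 0.185) over all 9 libraries and 0.877 without replicate 1 (adjusted p = 0.0446). Itgae, which pairs with Itgb7 and binds E-cadherin, had 90.9, 125 and 149 and a variance 0.357 times the trend, with 0.395 for both Itgal and Itgb2. Itgb2 had r = 0.119 with the score of 7 macrophage markers (exact p = 0.760). Those markers and Cd163, which had a mean under 10, summed to 1815 to 2069 in replicates 2, 3, 6 and 9 and 2083 to 3072 in the other 5 libraries. Of the 7 markers, the complement genes C1qa, C1qb and C1qc were higher at higher shares (for C1qc, slope 0.44 ± 0.08, adjusted p = 0.00293). The other 4 did not pass: Cd68, Aif1, Csf1r and Adgre1 (adjusted p = 0.0801, 0.0817, 0.475 and 0.534), and the slope of Adgre1 was negative (-0.08 ± 0.09).

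Itga2b and Itgb3, the subunits of the platelet fibrinogen receptor, ranked the libraries in nearly opposite order. Itga2b had 282 (replicate 9), 553 and 756 (replicate 5), and Itgb3, with few reads, had 4.35 (replicate 8), 13.4 and 27.3 (replicate 9). Pearson's r did not pass (r = -0.738, exact permutation p = 0.0257, adjusted p = 0.0942), while rho did (-0.850, exact p = 0.00607, adjusted p = 0.0445), and r was -0.467 without replicates 6 and 9. Itga2b was higher at higher shares (slope 0.29 ± 0.10 (SE), adjusted p = 0.0461) and kept the threshold in 8 of 18 alternatives. Platelet markers were low, with Pf4 and Gp9 at 52.8 and 14.5 in the median library. The remaining listed marker, Ppbp, had a median of 0 and a highest value of 0.777. Gp9 was higher at higher shares (slope 0.53 ± 0.18, adjusted p = 0.0323), while Pf4 did not pass (slope 0.28 ± 0.11, adjusted p = 0.0516). Itga4, which leukocytes use with Itgb1 or Itgb7 to leave vessels, had 7.32 (replicate 5), 14.4 and 30.1 (replicate 6) and was lower at higher shares (slope -0.53 ± 0.16 (SE), adjusted p = 0.0222). It held only 8 to 44 reads per library, and its adjusted p was 0.0997 without replicate 5. Itgb3 and Itga4 were higher without overlap in replicates 2, 3, 6 and 9. The gap was narrow for such few reads, with 15.9 for both in replicate 3 against 13.4 (Itgb3) and 14.4 (Itga4) in replicate 1.

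Other matrix genes, from lists of the wider pathway, were read from the same fit on the share, in which 35.0% of all genes passed, 16.3% higher and 18.7% lower. The lists hold 12 genes or fewer, and nothing particular to any of them is read from its count. Of 12 genes of collagen processing, 5 passed (41.7%), 4 higher at higher shares and 1 lower. The 4 were Pcolce, the enhancer of procollagen cleavage (slope 0.48 ± 0.08, adjusted p = 0.00227), Loxl1, a cross-linking enzyme (slope 0.37 ± 0.09, adjusted p = 0.00724), Serpinh1, the collagen chaperone, and Plod3, a lysyl hydroxylase, and the lower one was the cross-linking enzyme Lox (slope -0.54 ± 0.18, adjusted p = 0.0322). Of 9 basement membrane partners, 4 passed (44.4%), all lower: Dag1, the dystroglycan receptor for laminin (slope -0.39 ± 0.09, adjusted p = 0.00590), Nid1, which links laminin to type IV collagen (slope -0.53 ± 0.17, adjusted p = 0.0327), Timp3, a protease inhibitor held in the matrix (slope -0.39 ± 0.09, adjusted p = 0.00834), and the collagen receptor Ddr2. Of 10 adhesion genes downstream of integrins, Zyx was higher (slope 0.30 ± 0.08, adjusted p = 0.0118) and Fermt2 and Lims1 were lower, and the talin gene Tln1 and the kinase gene Ilk did not pass (adjusted p = 0.310 and 0.0815). Of the marker lists, 1 of 8 podocyte, 3 of 7 endothelial, 2 of 5 smooth muscle, 1 of 6 fibroblast, 3 of 7 macrophage and 1 of 2 platelet genes passed, against the same 35.0% of all genes, and 0 of 4 proximal tubule, 3 principal cell, 4 intercalated cell, 2 thick ascending limb, 3 skeletal muscle and 2 adipose genes. The part of cell make-up in the slopes was not tested.

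Across classes, the mean correlation was highest within the fibrillar collagens and lowest within the integrins. The mean correlation between pairs of genes over the 9 libraries was 0.372 within the fibrillar collagens (36 pairs), 0.148 within the other collagens (105 pairs), 0.112 within the basement membrane chains (78 pairs) and 0.0187 within the integrins (210 pairs), against 0.000541 over all pairs of tested genes. Between classes it was 0.0826 for basement membrane with fibrillar collagens, 0.0747 for basement membrane with integrins and 0.0438 for fibrillar collagens with integrins. These are descriptions without a test, since all pairs share the same 9 libraries. Leaving out 1 library at a time gave 0.267 to 0.430 for the fibrillar collagens and 0.0138 to 0.150 for the basement membrane chains. Scaling to the same total moved the integrin value to 0.136 and the value over all pairs to 0.0573. Col4a1 and Col1a1 themselves had r = 0.310 (exact permutation p = 0.415, adjusted p = 0.530; rho = 0.20), with 0.713 without replicate 1 and -0.112 without replicate 3.

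All 9 fibrillar collagens were under their own mean in replicate 3 (median difference -0.40 on the log2 scale), and 8 of 9 were above it in replicates 1 (0.28) and 4 (0.26). The basement membrane chains were highest in replicate 9, with 12 of 13 above their mean (median 0.26), and low in replicates 1 (-0.16) and 3 (-0.16). The integrins were highest in replicates 6 and 9 (both 0.21) and lowest in replicate 5 (-0.17). Replicate 1, with its low proximal tubule markers and high principal cell, intercalated cell, thick ascending limb and adipose markers, was thus high in fibrillar and low in basement membrane genes. Replicate 3, low in both, was the library with the fewest reads.

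**Figure D5:**
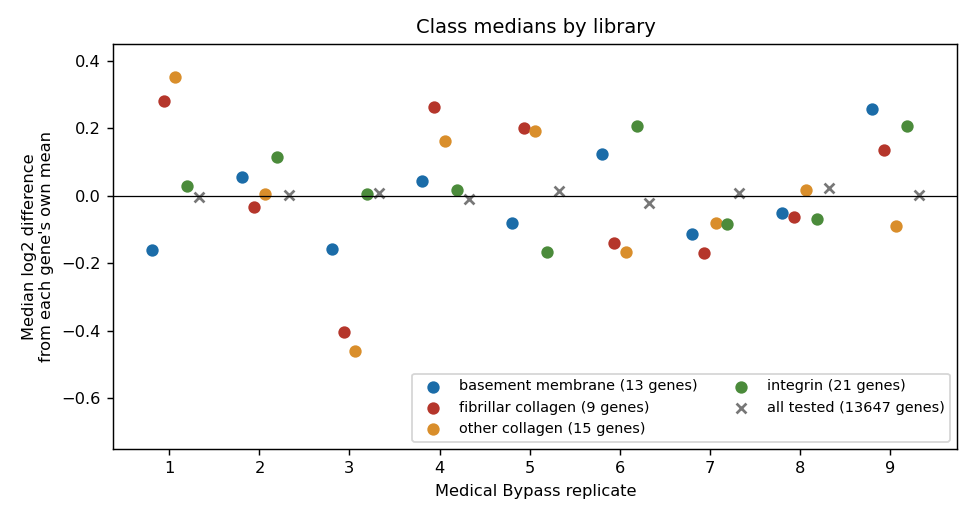
Median over the genes of a class of the log2 difference from each gene's own mean (vertical axis) in each Medical Bypass replicate (horizontal axis), with grey crosses for all 13647 genes tested. Fibrillar and other collagens are low in replicate 3 and basement membrane genes are high in replicate 9, while the crosses lie near 0 in all 9 libraries.

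The genes that followed the 2 anchor chains were read from fits over the whole table. With Col1a1, 0 of 57 members passed an adjusted p of 0.05 in limma, against 0% of all 13646 other genes, and DESeq2 named 4 genes and edgeR 0. At an unadjusted p of 0.05, 12 of 57 members passed, against 15.1%. Of these 12, 8 were collagens, with Col1a2 first (slope per SD of Col1a1 0.21 ± 0.06 (SE), adjusted p = 0.327) and Col7a1 next (slope 0.63 ± 0.20 (SE), adjusted p = 0.327), beside Lamb2, Lama2, Itgb4 and Itgb8. With Col4a1, 0 of 57 members passed, against 0.0220% of all genes, and 4 did at an unadjusted p of 0.05, against 4.50%: Lamb3, Col4a2, Col8a2 and Itgax. Lamb3 had the largest slope of these (0.52 ± 0.12 (SE), adjusted p = 0.349), and Col4a2 had 0.20 ± 0.07 (SE), adjusted p = 0.880.

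The 3 genes of the whole table that passed with Col4a1 were not matrix genes. They were the clock transcription factor gene Arntl (slope 1.74 ± 0.17 (SE), adjusted p = 0.00718), Nfil3, a repressor linked to the clock (1.20 ± 0.13, adjusted p = 0.0111), and Dhcr7, the last enzyme of cholesterol synthesis (0.66 ± 0.08, adjusted p = 0.0214). All 3 were low in replicates 1 to 3 and high in replicates 4 to 9, with Arntl at 33.8 to 101 and 325 to 1363 and Col4a1 at 3296 to 4423 and 4424 to 5934. Without replicate 1, or with libraries brought to equal totals, 0 genes passed, and DESeq2 named 50. By correlation over the 9 libraries, and among the 11472 tested genes with a named symbol, the 5 nearest Col4a1 were Alox15b (r = 0.987), Myc (0.977), Dhcr7 (0.959), Arntl (0.956) and Tsc22d1 (0.954). The 5 nearest Col1a1 were Hspb7 (0.943), Fbln1 (0.933), Ltbp2 (0.930), Ppt1 (0.926) and Col1a2 (0.923), of which Fbln1 and Ltbp2 code for matrix proteins. The 5 nearest Itgb2 were Sdccag3 (0.925), Slc25a17 (0.917), Ticam2 (0.911), Pole (0.906) and Ect2 (0.892).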

How the data were processed

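RNA had been isolated from flash-frozen kidney cortex with a column kit and made into stranded mRNA libraries on an automated system, per the labels' protocols. HTSeq 0.6.1p1, DESeq2 and the build Rnor_5.0 are named in the submitters' processing notes, which give no roles; for the aligner and the strand setting, nothing is stated in the sources used here. Each deposited value is a signal: read counts per gene divided by the library's size factor by the authors, without correction for gene length. Read counts were recovered from the steps of the deposited values, and 100% of those above 0 came within 0.1 read of an integer. The 3 rows that name no gene (outside genes, ambiguous and multi-aligned, 28.9%, 0.106% and 17.2% of counted reads on average) were left out of the tests.

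The 58 genes, the lists and the pairs were chosen with earlier results of these data known. Values were analysed as log2(value + 1) for 13647 genes with a mean of at least 10, in limma 3.58.1 (R 4.3.3) with a robust trend and Benjamini-Hochberg adjustment over the whole table, at 0.05. This was done for variance against its trend and for slopes on Col1a1, Col4a1 and the share of multi-aligned reads. The steps were tested on simulated data in which all unchanged genes had the same dispersion. This does not show how large a variance the variance test could call in these libraries. On the recovered counts, edgeR 4.0.16 called 4852 genes on the share and DESeq2 1.42.0 called 5389. Alternatives changed the pseudocount (0.5 and 5), scaling, filter, covariates, tool and replicates used. All 36 pairs of libraries differed by more than counting error, with a chi-square of 18.4 to 182 per degree of freedom. Values are named for the genes of the listed pairs and for the 3 highest and 3 lowest variances of a class, with the 5 genes nearest to Col1a1, Col4a1 and Itgb2 among named symbols; other genes were chosen after their values were seen. The values of some genes are not reported here. Levels per coding length were not computed, since no protein lengths were used here. Promoter windows come from RefSeq on GRCr8, a build other than that of the counts. Ranges of values cover the spread between libraries, and counting error is largest for genes with few reads.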

Additional observations from a re-analysis of the deposited data

Results flagged for a closer look

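In 4 of the 58 genes (6.90%) 1 library lay far from the other 8, by the gap to its nearest neighbour over the whole range (above Dixon's critical value for 9 samples). Chance alone flags about 1 in 20 groups, and 930 of all 13647 genes (6.81%) were flagged in the same way. Col3a1, the type III collagen chain, reached 1976 in replicate 4, with 1500.3 as the next value, a gap just above the limit. Col8a2, a lattice collagen chain, reached 159 in replicate 5, with 89.0 next. Col24a1, a fibrillar collagen with few reads, reached 33.8 in replicate 9, with 15.4 next. Col27a1, a fibrillar collagen, was lowest in replicate 3, at 320.5, with 570.1 next.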

How the results depend on the processing

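Counts of members called stayed within 1.5 times under every alternative for the Col1a1 and Col4a1 slopes (0 throughout). Genes called on Col1a1 were 0 except for 4 with DESeq2. Genes called on Col4a1 were 3 and became 0 with the same total per library, 7 with the share as a covariate, 50 with DESeq2, 0 without replicates 1 and 3, and 0 to 6 with 1 replicate left out (0 without replicate 1). Genes of outlying dispersion by DESeq2 numbered 71, with 1 member. Genes called on the share were 4774 and became 1984 without replicates 1 and 5 and 1740 to 4978 with 1 replicate left out, and members called were 14, then 6 and 7 to 15; the lowest values were those without replicate 5. Relations past the threshold were 3, and became 5 with the same total, 6 with library size as a covariate and 0 to 4 with 1 replicate left out (0 without replicate 3). The mean correlation within other collagens became 0.241 with the same total, within integrins 0.136, between basement membrane and integrins 0.172, between fibrillar collagens and integrins 0.167 (0.114 with the share as a covariate), and over all genes 0.0573 (0.00200 with TMM). Relations far from the threshold changed sign. Itga3 with Itgb1 was 0.0972 with the same total, Col1a1 with Havcr1 -0.0586 with library size, Itgb2 with the macrophage score -0.188 with library size, and Lamb2 with the podocyte score 0.214 with the same total, 0.0897 with the share and 0.166 with library size. With 1 replicate left out, r ran from -0.388 to 0.626 for Col8a1 with Col8a2, -0.112 to 0.713 for Col4a1 with Col1a1, -0.126 to 0.190 for Col1a1 with Havcr1, -0.643 to 0.223 for Lamb2 with the podocyte score and -0.173 to 0.299 for Itgb2 with the macrophage score. The cause of these changes was not tested. Of the other values, 1293 stayed on the same side, 60 lost and 25 gained the threshold. The added alternatives without pairs of replicates were chosen after seeing the data. No paired analysis was possible because the labels give 1 group. Depth limits Col8a1, Col20a1 and Col24a1, with as few as 2 to 3 reads in a library.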

Other observations

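Outside the listed pairs, the highest correlations between member genes that did not split into 2 sets of libraries were found after looking at all pairs, and they are given without a test. Over the 9 libraries Col7a1 and Col16a1 had r = 0.923, and Lamb3 and Col4a1 had r = 0.922. Lamb3, an epithelial laminin chain, was at 17.5, 27.97 and 19.9 in replicates 1 to 3 and at 35.6 to 54.9 in replicates 4 to 9, and Col4a1 was at 3830.4, 4423 and 3296 in replicates 1 to 3 and at 4424 to 5934 in replicates 4 to 9. The lowest such correlation was between Itga6 and Lamb2, at -0.926. Itga6 was lower and Lamb2 higher at higher shares of multi-aligned reads, and the part of the share in this value was not tested.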
